A study of Mus musculus with 24 samples.

Results

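Accessible chromatin in cells of a healed partial-thickness skin wound was set against that of the hair follicle stem cells from which, per the labels, those cells descend. The peaks of the 2 deposited lists, from hair follicle stem cells of unwounded skin at day 0 (the follicle list) and from wound-responsive progeny of these cells at day 80 (the healed-wound list), were merged wherever they touched by at least 1 bp. This gave 43249 regions, of 63188 regions over all 8 peak lists of the series. Each region was healed-wound-only, follicle-only or shared, and was given to its nearest protein-coding gene within 50 kb. The follicle list stands for 4 samples and the healed-wound list for 3, so 7 of the series' 24 samples are behind the comparison. Because each group has 1 deposited list, there is no replicate error, no test between groups and no p-value. Intervals given below are exact 95% Clopper-Pearson intervals and cover counting error only.

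All samples came from mice of a CD1 x C57BL/6J cross and were measured by ATAC-seq, which maps open chromatin by where a transposase can insert. Both groups compared carried Krt19-CreER/R26-YFP, a drug-inducible recombinase driven from the keratin 19 gene together with a yellow fluorescent reporter, and they differed in treatment (unwounded or partial-thickness wounded) and in day. Cells were freed from skin with trypsin and sorted, and the labels name neither age nor sort gates nor any pooling of animals. The 6 other lists covered unwounded epidermal stem cells (4 samples at day 0, 3 at day 80) and follicle progeny of the partial-thickness wound (3 samples at day 3, 2 at day 7), all of the same genotype, and epidermal progeny of a full-thickness wound (3 samples at day 7, 2 at day 80) from Sox9-CreER/R26-YFP mice. These 6 lists had no part in making the classes. The peak names in the day 0 epidermal list carry a control tag for day 7, so its day is uncertain.

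Hair follicle stem cells rest in the bulge, a niche in the upper follicle, and maintain the follicle through its growth cycles. Transcription factors such as Sox9, Lhx2, Nfatc1, Tcf7l1 and Foxc1 are known for holding their identity or quiescence, and Cd34, Krt15 and Lgr5 mark them. When the epidermis between follicles is lost, bulge cells can leave the niche, re-epithelialise the surface and stay there as epidermal cells. Epidermal cells rely on other factors, among them Klf5, Gata3, Grhl3 and Trp63. An accessible region away from a gene's start site is often an enhancer, while regions at start sites are promoters, many of which are open in most cell types.

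Promoter sequence differed in its letters between the 2 exclusive classes. Of the RefSeq start sites, 506 lay under a healed-wound-only region, 667 under a follicle-only region and 8682 under a shared region, out of 21263. The 506 sites belong to 463 genes and the 667 to 596, so some windows of a gene overlap. The AP-1 motif was searched as TGANTCA on both strands of the 300 bases from 250 before to 50 after each start site. These letters take in the site TGA(C/G)TCA, bound by Fos and Jun dimers, and also TGAATCA and TGATTCA. The whole motif was counted, not split by its middle base. It was in 12.6% of the healed-wound-only promoters (64 of 506, interval 9.88 to 15.9%), in 5.25% of the follicle-only promoters (35 of 667, 3.68 to 7.22%), in 4.6% of the shared promoters and in 6.99% of all promoters of the same length. Among the 11408 start sites under no region it was in 8.66%. The 250 bases before the start site are shown for the 5 healed-wound-only start sites with the highest peak scores among those with a match, with the AP-1 letters in capitals, to show how the motif sits in these promoters. They were chosen for the match, after values had been seen, and all sequences are from RefSeq on GRCm38.p6 (the assembly of mm10), written 5′ to 3′ in the direction of the gene.
Atp13a4: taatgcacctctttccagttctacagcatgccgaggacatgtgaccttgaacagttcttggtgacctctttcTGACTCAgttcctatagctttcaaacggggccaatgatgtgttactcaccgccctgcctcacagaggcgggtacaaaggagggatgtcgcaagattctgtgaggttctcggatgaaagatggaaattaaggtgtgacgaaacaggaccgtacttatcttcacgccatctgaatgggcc
Cyp3a13: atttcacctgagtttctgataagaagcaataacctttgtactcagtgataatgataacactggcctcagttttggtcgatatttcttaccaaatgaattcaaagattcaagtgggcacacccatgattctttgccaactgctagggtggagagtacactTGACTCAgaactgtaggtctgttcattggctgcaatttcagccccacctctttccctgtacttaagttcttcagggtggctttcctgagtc
Mmp3: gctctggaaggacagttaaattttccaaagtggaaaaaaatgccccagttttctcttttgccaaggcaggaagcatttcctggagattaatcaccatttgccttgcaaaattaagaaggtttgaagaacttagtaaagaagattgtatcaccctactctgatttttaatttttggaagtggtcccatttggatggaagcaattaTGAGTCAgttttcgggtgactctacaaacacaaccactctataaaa
Olr1: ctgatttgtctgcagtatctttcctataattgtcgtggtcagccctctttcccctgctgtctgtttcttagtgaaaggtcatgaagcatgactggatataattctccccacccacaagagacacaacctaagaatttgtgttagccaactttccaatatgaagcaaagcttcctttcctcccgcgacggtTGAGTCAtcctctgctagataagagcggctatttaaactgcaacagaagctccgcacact
Slc9a9: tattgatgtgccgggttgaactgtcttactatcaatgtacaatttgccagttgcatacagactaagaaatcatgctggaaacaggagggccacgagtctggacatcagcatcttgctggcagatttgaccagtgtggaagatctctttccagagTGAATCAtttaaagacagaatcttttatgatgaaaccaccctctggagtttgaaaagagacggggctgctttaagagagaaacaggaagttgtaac
These stretches are chr16:29544865-29545114 (minus strand) for Atp13a4, a cation pump; chr5:137921620-137921869 (minus) for Cyp3a13, a cytochrome P450; chr9:7445572-7445821 (plus) for Mmp3, a matrix metalloproteinase; chr6:129507166-129507415 (minus) for Olr1, a receptor for oxidised lipoprotein; and chr9:94669642-94669891 (plus) for Slc9a9, a sodium-proton exchanger. The match began 178 bases before the start site in Atp13a4, 91 in Cyp3a13, 46 in Mmp3, 60 in Olr1 and 96 in Slc9a9. It was TGACTCA in Atp13a4 and Cyp3a13 and TGAGTCA in Mmp3 and Olr1. In Slc9a9 it was TGAATCA, which fits the searched letters but not the narrower site. Over all 21263 start sites, 6.13% had a match in these 250 bases. The start-site regions of 4 of these 5 genes were in all 6 other lists, and that of Mmp3 was in all but the day 3 partial-wound list. A match is a description of letters, and binding was not measured.

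The order of the classes was shared by some other motifs and not by others. The GATA letters AGATAA were in 11.3% of healed-wound-only promoters (interval 8.64 to 14.3%) and 5.25% of follicle-only promoters (3.68 to 7.22%), beside 9.65% of all promoters and 5.17% of shared ones, the same order as for AP-1. The E-box letters CANNTG also followed this order, with 75.9% of healed-wound-only, 69% of all, 66.4% of follicle-only and 61% of shared promoters. Promoters under no region had the GATA letters in 13.2% and the E-box letters in 75%, so neither was particular to healed-wound-only promoters. The ETS letters GGAAGT were in 27.3% and 17.4%, beside 24.8% of all, and share GGAA with the TEAD letters GGAATG, which were in 14.6% and 12.7%. The KLF letters CACCC were in 65.4% and 72.9%. The CRE letters TGACGTC were in 5.14% and 1.95%, beside 3.84% of all and 6.52% of shared promoters. RUNX letters TGTGGT were in 14.2% and 11.2%, NFI half-site letters TTGGCA in 13.8% and 11.8%, and GRHL letters AACCNG in 43.5% and 40.3%. The SOX letters ACAAAG were in 14.2% of both classes, and a second SOX form, ACAATG, in 8.5% and 7.35%. The TCF letters CTTTGA, whose reverse complement overlaps the first SOX letters, were in 11.5% and 10.2%. Base composition moved with these shares: median GC content was 57% in healed-wound-only promoters and 64% in follicle-only ones, with medians of 13 and 21 CpG dinucleotides per window, and its part in the motif shares was not tested. Promoters under no region had a median GC content of 50.7% and a median of 5 CpG dinucleotides.

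Bmp4, Foxc1 and Cd34 show the spread of CpG content within and between the classes, and their 250 bases before the start site follow with each CpG in capitals.
Bmp4: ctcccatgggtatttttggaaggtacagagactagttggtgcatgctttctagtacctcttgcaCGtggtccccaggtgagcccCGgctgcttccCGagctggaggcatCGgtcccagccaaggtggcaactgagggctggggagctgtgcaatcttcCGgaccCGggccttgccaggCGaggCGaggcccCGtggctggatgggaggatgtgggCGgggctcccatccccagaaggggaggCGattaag
Foxc1: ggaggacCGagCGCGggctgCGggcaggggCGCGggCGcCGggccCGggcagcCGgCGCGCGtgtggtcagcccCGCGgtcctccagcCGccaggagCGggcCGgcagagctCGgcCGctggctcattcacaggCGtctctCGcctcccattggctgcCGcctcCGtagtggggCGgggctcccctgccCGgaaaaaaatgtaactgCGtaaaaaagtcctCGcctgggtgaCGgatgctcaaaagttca
Cd34: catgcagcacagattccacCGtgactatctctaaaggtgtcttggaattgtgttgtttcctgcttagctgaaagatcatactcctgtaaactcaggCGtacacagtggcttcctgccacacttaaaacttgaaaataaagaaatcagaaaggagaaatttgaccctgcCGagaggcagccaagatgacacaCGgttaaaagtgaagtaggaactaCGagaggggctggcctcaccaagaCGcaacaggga
Bmp4 (chr14:46390670-46390919, minus strand) lay under a healed-wound-only region and had 11 CpGs and 63.2% GC. Foxc1 (chr13:31806396-31806645, plus) lay under a follicle-only region and had 29 CpGs and 70.8% GC. Cd34 (chr1:194938571-194938820, plus), also follicle-only, had 6 CpGs and 46.4% GC.

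The healed-wound list and the follicle list shared 18852 regions, 43.59% of all (interval 43.12 to 44.06%). Healed-wound-only regions numbered 14097 (32.59%, 32.15 to 33.04%) and follicle-only regions 10300 (23.82%, 23.41 to 24.22%). The shared regions were 57.22% of the healed-wound list and 64.67% of the follicle list. They were wider, with a median of 1221 bp against 758 and 756 bp in the exclusive classes. Within shared regions the summits of the 2 lists lay a median of 43 bp apart, and in 78.5% of them within 100 bp. The lists differed in length and lowest kept value, 32976 peaks down to a −log10 p of 21.04 for the healed wound and 29365 peaks down to 17.3 for the follicle.

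The healed-wound list was closer to the epidermal lists than to the follicle list by this measure. It shared 68.5% of the combined regions with day 80 epidermis and 67.4% with day 0 epidermis, against 43.6% with the follicle. The follicle list shared 44.6% with day 80 epidermis and 43.5% with day 0 epidermis. Its share with the healed wound was therefore about that with epidermis that had never been wounded. The partial-wound lists of day 3 and day 7 shared 44.8% and 46.7% with the follicle list, and 50.9% and 57% with the healed-wound list.

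The share of regions found in both lists rose with its peak score, the authors' value that ranks a peak within its own list. In the healed-wound list 27.86% of the weakest decile was shared and 93.47% of the strongest. In the follicle list the same shares were 39.57% and 88.31%. Among regions over 1 kb from a start site, the strongest decile by score was shared for 86.25% in the healed-wound list and 76.81% in the follicle list. Ranked by fold enrichment (a ratio over local background) this order turned, with 58.13% in the healed-wound list and 71.88% in the follicle list. Which list had more exclusive regions among its strong distal ones thus depended on the ranking.

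**Figure D1:**
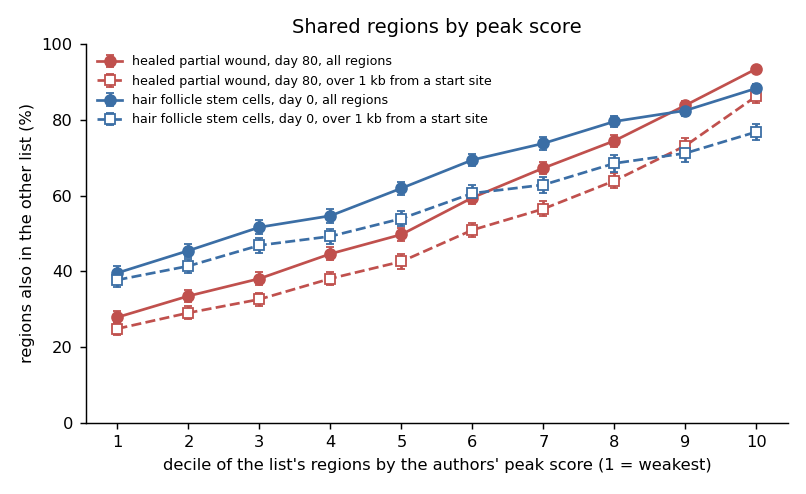
Share of each list's regions that are also in the other list (y axis, %), by decile of the authors' peak score within the list (x axis, 1 is weakest); filled points are all regions, open points those over 1 kb from a start site, and bars are exact 95% intervals. All 4 lines climb, and the healed-wound list ends above the follicle list, at 93.47% against 88.31% for all regions.

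Exclusive regions lay away from start sites. Within 1 kb of a RefSeq start site were 38.3% of shared regions, but 4.65% of healed-wound-only regions (interval 4.3 to 5.01%) and 7.26% of follicle-only regions (6.77 to 7.78%). With the upper 50% of each list by score the order of the exclusive classes turned, to 12.7% and 12.2%. The median distance to a start site was 10.3 kb for shared, 35.8 kb for healed-wound-only and 62 kb for follicle-only regions. Regions with no protein-coding gene within 50 kb made up 25.5% of follicle-only regions (24.6 to 26.3%) and 16.5% of healed-wound-only regions (15.9 to 17.1%).

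**Figure D2:**
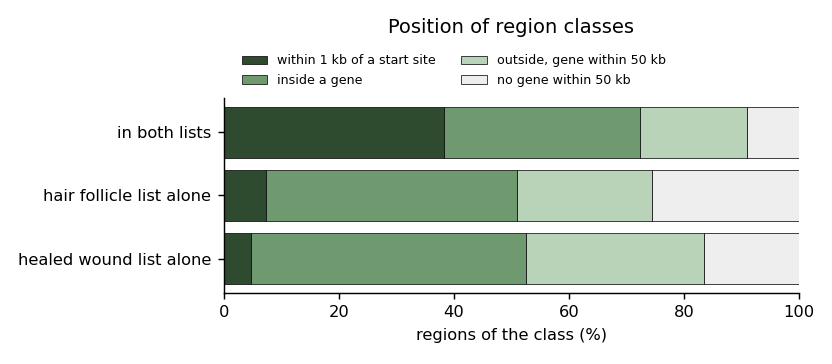
Share of each class (x axis, %) within 1 kb of a start site, inside a gene, outside a gene with a gene within 50 kb, and with no gene within 50 kb; 1 bar per class. Start sites hold 38.3% of shared regions and under 8% of either exclusive class.

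Most healed-wound-only regions were also in an epidermal list. Day 80 epidermis held 63.5% of them (interval 62.7 to 64.3%), day 0 epidermis 61.9%, and 74% were in at least 1 of the 2 epidermal lists. The early partial-wound lists held fewer, 44.5% at day 3 and 51.2% at day 7. In no other list were 1452 of them (10.3%), while 3055 (21.7%) were in all 6 others and thus missing from the follicle list alone. Follicle-only regions stood the other way. Day 80 epidermis held 15% (14.3 to 15.7%), day 0 epidermis 13.6%, and 5629 (54.7%) were in no other list. The day 3 and day 7 partial-wound lists held 31.2% (30.3 to 32.1%) and 29.5% (28.6 to 30.4%) of them, above every other list (17.8% in the longest, the day 7 full wound with 37214 peaks), and 1411 (13.7%) were in both of these lists and in neither epidermal list. The day 80 full-wound list held 14.2% of follicle-only regions and 64.3% of healed-wound-only regions. Shared regions were in each other list for 88% to 92.6%. In sorted bulk cells, fewer cells with an open site and less opening per cell cannot be told apart.

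Among healed-wound-only regions these shares depended on the score. In the strongest of 5 equal groups by score, 94.1% were in day 80 epidermis, 60.5% in the day 3 partial-wound list and 0.355% in no other list. In the weakest of these groups the values were 39.3%, 34.9% and 20.9%. Follicle-only regions changed less: 13.1% of the strongest group and 13.8% of the weakest were in day 80 epidermis, and 50.1% and 57.8% were in no other list. The share in the day 3 list was 38.3% in the strongest and 26.6% in the weakest group. Healed-wound-only regions seen nowhere else were thus mostly weak peaks, and follicle-only regions seen nowhere else were of all strengths.

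**Figure D3:**
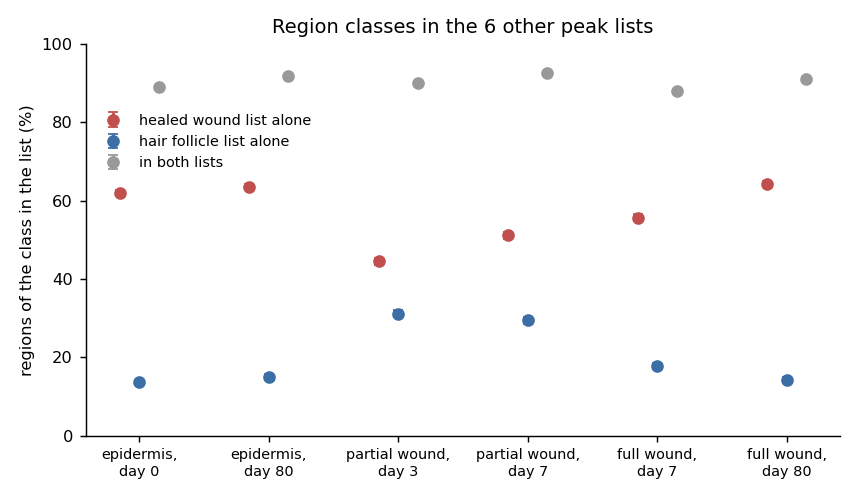
Share of the regions of each class (y axis, %) overlapped by a peak of each of the 6 lists that did not make the classes (x axis); bars are exact 95% intervals, mostly smaller than the points. Healed-wound-only regions are highest in epidermis and in the day 80 full wound (61.9% to 64.3%), and follicle-only regions are highest in the day 3 and day 7 partial wound (31.2% and 29.5%).

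The 5 healed-wound-only regions with the highest scores were all in all 6 other lists. They were nearest to Samd8 (a lipid-metabolism enzyme of the sphingomyelin synthase family, score 2000), Vrk3 (a kinase-like protein, 1989), Cntn1 (a neural adhesion molecule, 1983), Pcgf5 (a Polycomb component, 1960) and, for the highest, no gene within 50 kb (chr13:53717021-53718258, 2245). The 5 follicle-only regions with the highest scores were all in the day 3 partial-wound list and in no epidermal or full-wound list. They were inside Ptprk, a receptor phosphatase (chr10:28279932-28281081, score 2963), inside Tenm3, a synaptic adhesion protein (chr8:49186633-49188289, 2658), inside Trpm6, a magnesium channel (2498), near Skint4, which belongs to a family expressed in skin (2418), and with no gene within 50 kb (chr1:67481792-67482817, 2430). All but the Trpm6 region were also in the day 7 list.

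Per gene, 36577 regions (84.6%) could be given to 13533 protein-coding genes, with a median of 2 regions a gene. Of these regions 32.2% were healed-wound-only and 21.0% follicle-only. More regions in the healed-wound list were found at 36.8% of the genes, more in the follicle list at 18.6%, and equal numbers at 44.6%. At least 1 healed-wound-only region was found at 46.8% of the genes, and at least 1 follicle-only region at 30.6%. These are the shares against which the gene lists are read below, and over all genes the median difference was 0. Counts are written as healed-wound-only, follicle-only and shared regions. The gene lists were chosen with earlier results on these data known.

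**Figure D4:**
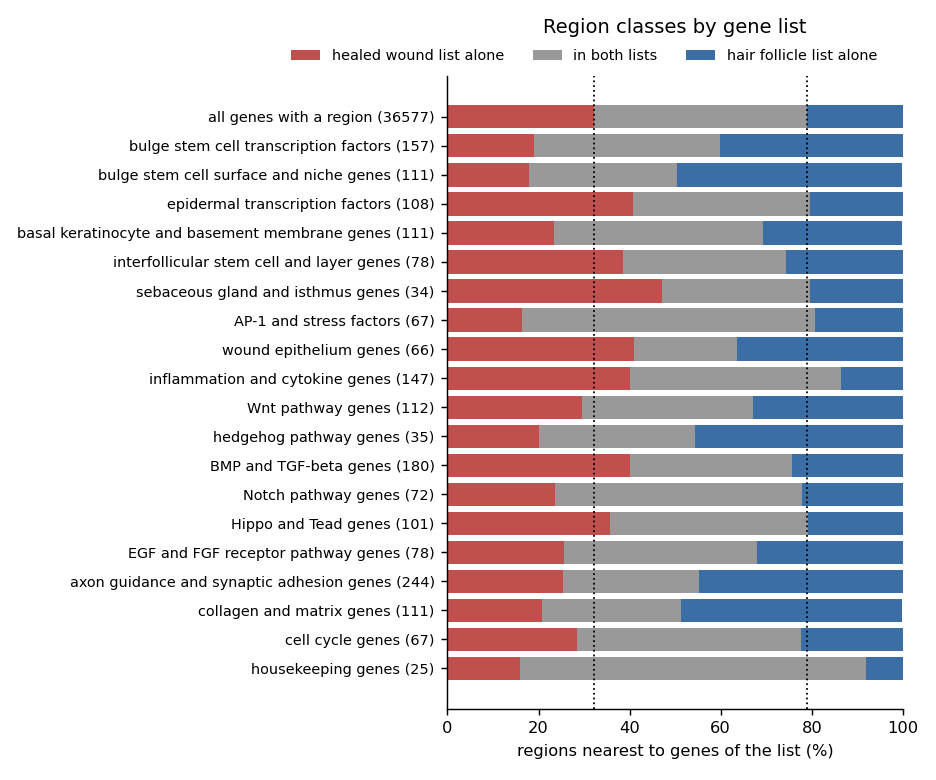
Regions nearest to the genes of each list, split by class (x axis, % of the list's regions, whose number is in brackets); dotted lines mark the split over all genes. Both bulge lists, the hedgehog, axon guidance and collagen lists extend the follicle-only part beyond 40%, and the inflammation list has the smallest follicle-only part of the signalling lists at 13.6%.

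At bulge transcription factor genes, follicle-only regions outnumbered healed-wound-only ones. The 16 genes had 30 healed-wound-only, 63 follicle-only and 64 shared regions, so 40.1% were follicle-only (interval 32.4 to 48.2%) against 21.0% over all genes. More regions in the follicle list were found at 11 of the 16 and more in the healed-wound list at 2, with a median difference of 2 in favour of the follicle. Foxc1, which holds bulge cells in quiescence, had 3 follicle-only regions and no other (0, 3 and 0). Lhx2, which maintains bulge identity, had 0, 4 and 2, and Sox9, a factor that specifies the bulge, 0, 1 and 2. Nfatc1, a brake on bulge cell division, had 2, 6 and 4, and Tcf7l1, a repressor of Wnt targets, 3, 7 and 3. Runx1 had 0, 7 and 5, Gli2, a hedgehog effector, 0, 6 and 6, and Nfib 4, 7 and 8. Foxp1 (5, 3 and 10) and Hes1 (3, 1 and 3) leaned to the healed wound, and Tcf7l2 was balanced with 5, 5 and 6. The Foxp1 difference reversed among the upper 50% of each list by score and with lists of equal length. Of the 63 follicle-only regions, 30 were in no other list, 25 in the day 3 partial-wound list and 12 in an epidermal list. The shares of all follicle-only regions were 54.7%, 31.2% and 20.3%.

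At Foxc1 and Lhx2 the single regions show how the early wound stood between the ends. The Foxc1 promoter region (chr13:31805632-31808274, follicle score 521), whose sequence is given above, was in the partial-wound lists of day 3 and day 7, the day 0 epidermis and the day 7 full wound, and absent from the 3 lists of day 80. A region 8307 bp before Foxc1 (score 387) was in the day 3 and day 7 partial-wound lists only, and the region 21207 bp before it (score 164) in no other list. At Lhx2 the start-site region was shared. An intronic or exonic position could not be given, since the gene table holds no exons, but the Lhx2 region inside the gene at chr2:38359779-38360323 (score 375) was in the follicle list alone. The 2 regions past the gene at 7342 and 8626 bp (scores 346 and 306) were in the day 7 partial-wound list, the first also at day 3.

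Bulge surface and niche genes stood out in the same direction. Of 111 regions at 17 of the 18 genes, 49.5% were follicle-only (interval 39.9 to 59.2%) and 18% healed-wound-only. At 14 genes the follicle list had more regions and at 3 the healed-wound list. Lgr5, a Wnt-amplifying receptor of stem cells, had 7 regions, all inside the gene and all follicle-only, with scores of 163 to 1100. The day 3 partial wound held 5 of the 7 and the day 7 partial wound 4, the day 0 epidermis 1, and the day 80 epidermis and either full wound 0. Cd34, the surface sialomucin used to isolate bulge cells, had 1, 3 and 1. Its start-site region (chr1:194938533-194939608, score 310) and the region 8188 bp before the gene (score 320) were in the follicle list alone of all 8, and the region 42956 bp before it (score 758) was also in the day 3 and day 7 partial-wound lists. The healed-wound-only region 972 bp past Cd34 (chr1:194962264-194963122, score 314) was in all 6 other lists. Krt15, the keratin of the bulge, had 0, 2 and 1, with the 2 follicle-only regions in no other list, but it lies among other keratin genes to which they may belong. Ltbp2 had 0, 6 and 1, Tenm2 1, 10 and 6, and Sfrp1, a Wnt inhibitor, 1, 4 and 4. Cdh3, P-cadherin of basal cells, went the other way with 6, 1 and 3.

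At epidermal transcription factor genes, healed-wound-only regions outnumbered follicle-only ones. The 19 genes had 44, 22 and 42 regions, with 40.7% healed-wound-only (interval 31.4 to 50.6%) against 32.2% over all genes, an interval that reaches the share of all genes. The healed-wound list had more regions at 14 of the 19 and the follicle list at 4, and the median difference was 1. Gata3, a factor of epidermal differentiation, had 5, 1 and 2. Its healed-wound-only start-site region (chr2:9877995-9878682, score 461) was in all 6 other lists, and the one inside the gene at chr2:9859879-9860934 (score 737) was in both epidermal lists and the day 80 full wound but in no early wound list. Grhl3, needed for the barrier, had 5, 0 and 3, Trp63, the factor of stratified epithelia, 7, 3 and 5, and Prdm1 4, 1 and 2. Klf5 had 1, 0 and 1, and Klf4, a barrier factor, 1, 3 and 4. The healed-wound-only region of each of these 2 genes was in no other list, and so in neither epidermal list. Of the 44 healed-wound-only regions, 34 were in an epidermal list and 2 in no other list, while of the 22 follicle-only regions 1 was in an epidermal list. Over all genes and gaps, 74% and 10.3% of healed-wound-only regions and 20.3% of follicle-only regions were so placed.

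Structural genes of the epidermis were mixed. The basal keratinocyte and basement membrane genes had 26, 34 and 51 regions, with 30.6% follicle-only (interval 22.2 to 40.1%) against 21.0% over all genes. Healed-wound-only were 23.4% against 32.2%. The balance of this list turned to 6 more for the healed wound when both peak lists were held to the same lowest −log10 p. Krt14, a basal keratin, had 0, 1 and 2 and Krt5, its partner, 1, 0 and 1, and both differences reversed when only the upper 50% of each list by score was used. Cd44, a hyaluronan receptor, had 2, 9 and 5. The interfollicular and layer genes had 30, 20 and 28, with 9 genes on either side. Their healed-wound-only share was 38.5%, with an interval (27.7 to 50.2%) that includes the 32.2% of all genes. Among them Tgm3, a cross-linking enzyme of the cornified envelope, had 9, 0 and 3, and Ivl, an envelope protein, 3, 0 and 0. Calml3 (2, 4 and 0), Thbs1 (1, 3 and 2), Fst (1, 2 and 0) and Slc1a3 (1, 2 and 2) leaned to the follicle. The Slc1a3 difference reversed among the upper 50% of each list by score. Of the 9 healed-wound-only Tgm3 regions, the 2 weakest, with scores of 191 and 192, were in the day 7 full wound, and the strongest (chr2:129954569-129956140, score 966) was in all 6 other lists. The sebaceous gland and isthmus genes had 16, 7 and 11, with 47.1% healed-wound-only (interval 29.8 to 64.9%, which includes the 32.2% of all genes). Plet1, an isthmus marker, had 5, 0 and 2, while Lgr6 (1, 4 and 0) and Fads2 (0, 2 and 0) went the other way.

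Bmp4, a secreted ligand known to keep bulge cells at rest and to act in hair and epidermal differentiation, had 6 healed-wound-only regions and no other. Their scores were 306 to 731, and all 6 were in both epidermal lists. The start-site region (chr14:46389838-46391359, score 731), whose CpGs are shown above, was in both epidermal lists and the day 80 full wound, and in neither early partial-wound list. The region 6670 bp before the gene (score 605) was in all 6 other lists. Including regions farther than 50 kb, 13 neighbouring healed-wound-only regions followed each other over 191 kb at Bmp4 with no follicle region between them, and 11 and 10 of these were in day 0 and day 80 epidermis, 3 and 5 in the day 3 and day 7 partial wound, and 11 in the day 80 full wound.

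The BMP and TGF-beta list as a whole had 72, 44 and 64 regions, and its median difference was 1 for the healed wound. Healed-wound-only were 40% (interval 32.8 to 47.6%) against 32.2% over all genes. Follicle-only were 24.4% (18.4 to 31.4%), an interval that includes the 21.0% of all genes. More regions in the healed-wound list were found at 17 of 33 genes and more in the follicle list at 11, beside 36.8% and 18.6% of all genes. The receptor gene Bmpr1b had 6, 0 and 4. Among transducers, Smad3 had 9, 0 and 2, with 5 of its 9 in day 80 epidermis and 6 in the day 3 list. Tgfb2, a ligand, had 6, 2 and 2. The follicle list had more at Ltbp1, which stores latent TGF-beta in the matrix (2, 8 and 1), and at the inhibitor Smad7 (1, 6 and 2), whose difference reversed to 1 for the healed wound when only strong regions absent from the other list were counted. Of the 44 follicle-only regions, 23 were in the day 3 partial-wound list and 8 in an epidermal list. All follicle-only regions were there for 31.2% and 20.3%.

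Inflammation and cytokine genes had the smallest share of follicle-only regions among the signalling lists. The 28 genes had 59, 20 and 68 regions, with 13.6% follicle-only (interval 8.51 to 20.2%), and 19 genes had more regions in the healed-wound list and 4 in the follicle list. Il1b, a cytokine released on injury, had 6, 0 and 1, and Il33, an alarmin of keratinocytes, 6, 1 and 2. Il1r2, a decoy receptor, had 5, 1 and 3, and Tnfaip3, a brake on NF-kB, 5, 1 and 5. The strongest of the Il1b regions (chr2:129407462-129408701, score 1023) was in all 6 other lists, as was the strongest of the Il33 regions (chr19:29911883-29912389, score 881). Of the 59 healed-wound-only regions, 49 were in an epidermal list, 35 in the day 3 list and 3 in no other list. The shares of all healed-wound-only regions were 74%, 44.5% and 10.3%. Stat3, which carries cytokine signals, had 1, 0 and 3.

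Wound epithelium genes had 27, 24 and 15 regions, with more in the healed-wound list at 12 of 18 genes and more in the follicle list at 5, and the balance of regions reversed to 2 and 3 more for the follicle with lists of equal length and with a gene window of 10 kb. Of these regions 36.4% were follicle-only (interval 24.9 to 49.1%) against 21.0% over all genes. The healed-wound-only share was 40.9% (29 to 53.7%), an interval that includes the 32.2% of all genes. Tgfa, a ligand of the EGF receptor, had 3, 1 and 3, Ephb2, an ephrin receptor, 2, 0 and 0, and Itgav, an integrin subunit, 3, 2 and 2. Krt6a, a keratin of migrating epidermis, had 2 follicle-only regions, both also in the day 3, day 7 and full-wound day 7 lists. Hmga2, a chromatin protein, had 6 follicle-only regions and no other, 4 of them in no other list, and Tnc, a wound matrix protein, had 4, 8 and 1. The AP-1 and stress genes were mostly shared, with 11, 13 and 43 regions (64.2% shared, against 46.8% over all genes). Fos had 0, 1 and 6, a difference that reversed among the upper 50% of each list, Jun 1, 2 and 3, and Fosl1 0, 0 and 1.

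Wnt pathway genes went both ways singly, but their follicle-only share lay above that of all genes. It was 33% (interval 24.4 to 42.6%) against 21.0%, and the healed-wound-only share was 29.5% against 32.2%. The list had 33, 37 and 42 regions, with more in the healed-wound list at 9 genes, more in the follicle list at 10 and equal numbers at 9, a balance of regions that turned to 5 more for the healed wound at the common lowest −log10 p. The ligand gene Wnt7b had 8, 2 and 1 and Axin2, a target and feedback inhibitor, 5, 1 and 1, and the inhibitor genes Znrf3 and Nkd1 had 3, 2 and 2 and 0, 3 and 0. The receptor gene Fzd7 had 0, 4 and 1, the receptor gene Lgr4 2, 7 and 3, and Sostdc1, an inhibitor of Wnt and BMP, 0, 4 and 2. In the hedgehog list, 45.7% of 35 regions were follicle-only (interval 28.8 to 63.4%), and Hhip, which binds hedgehog ligands, had 0, 4 and 0. Notch genes were mostly shared, with 17, 16 and 39 (23.6% healed-wound-only and 22.2% follicle-only), and turned to 2 more for the follicle with lists of equal length. The Hippo and Tead list had 36, 21 and 44, a balance of 15 that turned to 1 for the follicle among strong regions absent from the other list. Its shares, 35.6% healed-wound-only (interval 26.4 to 45.8%) and 20.8% follicle-only, were near the 32.2% and 21.0% of all genes. Its co-activator genes Yap1 and Wwtr1 had 5, 0 and 4 and 6, 0 and 6, Tead1 had 7, 2 and 3, and Tead4 and the target gene Ccn2 went the other way with 0, 3 and 3 and 0, 4 and 1. EGF and FGF genes had 20, 25 and 33, with 32.1% follicle-only (interval 21.9 to 43.6%). Their balance turned to the healed wound among the upper 50% by 2 and at the common lowest −log10 p by 5. Errfi1, an inhibitor of the EGF receptor, had 5, 0 and 4, and Fgf1 0, 4 and 2.

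Adhesion, guidance and matrix genes carried many follicle-only regions. The axon guidance and synaptic adhesion list had 62, 109 and 73, with 44.7% follicle-only (interval 38.3 to 51.1%), and 15 genes had more regions in the follicle list and 7 in the healed-wound list. Tenm3 had 0, 16 and 1, Adgrl3, a latrophilin receptor that binds teneurins, 1, 16 and 1, and Sema3e, a secreted guidance cue, 0, 10 and 2. Robo1, the receptor of Slit proteins, stood the other way with 8, 0 and 2. All 8 of its healed-wound-only regions were in both epidermal lists and 3 were in the day 3 list. Sema5a also had more in the healed wound, with 9, 3 and 6. In the collagen and matrix list 48.6% of 111 regions were follicle-only (39 to 58.3%). Gpc6, a glypican that holds growth factors at the surface, had 0, 12 and 2, and Gpc3 0, 5 and 0. Of the 109 follicle-only guidance regions 70 were in no other list, and of the 54 matrix regions 36 were. The share of all follicle-only regions was 54.7%. Many of these genes are long and gather more regions, which a count per gene does not correct.

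Cell cycle genes had 19, 15 and 33 regions, but more genes had more regions in the follicle list (8) than in the healed-wound list (6). Their shares, 28.4% healed-wound-only and 22.4% follicle-only, were near the 32.2% and 21.0% of all genes. Cdk6, a kinase of the first growth phase, had 7, 0 and 2, and the proliferation marker Mki67 had 0, 3 and 2, Myc 1, 4 and 2, and Mycn 0, 2 and 0. Housekeeping genes, with 4, 2 and 19, were 76% shared, against 46.8% over all genes.

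Ranked over all genes, the most healed-wound-only regions lay at Dlg2, a synaptic scaffold (15, 2 and 6), Slc24a3, an ion exchanger (14, 1 and 3), Rora, a nuclear receptor (14, 4 and 5), and Babam2 (13, 0 and 4). Fhit (14, 5 and 4) and Auts2 (12, 10 and 11) also ranked in the first 10, but their differences reversed, Fhit to 2 for the follicle among the upper 50% of each list and Auts2 to 5 for the follicle with lists of equal length. The most follicle-only regions lay at Macrod2 (10, 18 and 14), Tenm3, Adgrl3, App, the amyloid precursor (2, 16 and 4), and Rad51b (8, 16 and 13). Of 2036 genes with at least 5 regions, 14 had healed-wound-only regions alone, led by Ssh2 with 8, and 21 had follicle-only regions alone, led by Kirrel, Slc14a2, Slc22a22 and Sorcs3 with 8 each.

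Exclusive regions formed uninterrupted runs along the chromosomes. Runs of at least 10 neighbouring regions of the same class numbered 13 for the healed wound (longest 14) and 25 for the follicle (longest 23). The classes hold 32.59% and 23.82% of all regions, and no expected number of runs was computed. The longest follicle run (chr5:77887215-81570308) spanned 3683 kb, reaching far beyond Adgrl3, its only assigned gene, which is 809 kb long. In it 8 of 23 regions were also in the day 3 partial-wound list and 1 in an epidermal list. At Pdzrn3 (chr6:101238721-101532966), the day 3 partial wound held 10 of 13 follicle-only regions and the day 7 partial wound 7, while the epidermal and full-wound lists held 0. Around Lgr5 and its neighbour Zfc3h1, 12 follicle-only regions followed each other over 275 kb. Of the healed-wound runs, that at Syt1 had 10 regions, all in both epidermal lists and the day 80 full wound, with 0 seen at day 3 and 3 at day 7 of the partial wound. A run of 12 spanned the Wnt genes Wnt9b and Wnt3 with Nsf (chr11:103749496-103901537).

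At start sites the exclusive regions were 2.38% (healed-wound-only) and 3.14% (follicle-only) of all RefSeq start sites. Among genes with a healed-wound-only start site and no follicle region at all, the highest scores were at Aadacl2, a deacetylase-like enzyme (1221), Atp13a4 (1118), Cyp3a13 (855), Mmp3 (833), Olr1 (783), Gsta2, a glutathione transferase (769), Tarm1 (740) and Bmp4 (731). Among those with a follicle-only start site and no healed-wound region they were at Itgb8, an integrin that releases active TGF-beta (1448), Sgcd, a sarcoglycan (1090), Dab2, an endocytic adaptor (1051), Nt5e, the ectonucleotidase CD73 (974), Fam180a (946), Dse (932), Agmo (848) and Ednra, an endothelin receptor (790). Exclusive start-site regions were more often in these other lists than their class as a whole. Of the follicle-only ones 49% (interval 44.9 to 53.1%) were in day 80 epidermis and 68.1% (64.2 to 71.9%) in the day 3 partial-wound list, beside 15% and 31.2% of all follicle-only regions. Of the healed-wound-only ones 69.8% and 69% were, beside 63.5% and 44.5% of all healed-wound-only regions. The Itgb8 and Nt5e regions were in all 6 other lists, and that of Fam180a was in the day 3 list only.

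Markers of other cells were counted beside these lists. Of 12 immune genes, 8 had no region (Cd207, Cd3g, Cd4, Cd74, Cd8a, Csf1r, Ikzf1 and Itgax), and the others had 4, 1 and 1. Of 12 fibroblast and dermal papilla genes, Col3a1, Lum, Pdgfrb and Tbx18 had no region and the others had 5, 11 and 4. Of these regions 55% were follicle-only (interval 31.5 to 76.9%), above the 21.0% over all genes. The melanocyte genes had 4, 9 and 6, with Ednrb, Kit, Mlana and Tyr at 0, and 47.4% follicle-only (24.4 to 71.1%). The endothelial genes had 8, 10 and 6 with Kdr at 0, and 41.7% follicle-only (22.1 to 63.4%). Their balance turned to 1 and 2 for the healed wound among the upper 50% and among strong regions absent from the other list. The muscle genes had 4, 0 and 4 with Des and Myh11 at 0, and 0% follicle-only (0 to 36.9%). The immune genes were 16.7% follicle-only (0.421 to 64.1%). The part of such cells in the matrix and guidance regions was not tested.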

How the data were processed

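The data were 8 deposited ATAC-seq peak lists in narrowPeak layout, 1 per group. Per the submitters' processing notes, the build was mm10 and the tools were bedtools 2.29.2, MACS2 2.1.1.20160309, Picard and Bowtie, listed without role or order. No source used here says whether peaks were called on pooled samples, and depth is unknown. The authors' score, fold enrichment (a ratio over local background), −log10 p and summit offset of each deposited peak belong to that peak within its own list, so no such value was compared across lists. Numbers in the peak names show that 54.2% of the calls were kept in the healed-wound list and 53.3% in the follicle list, so a weak peak can be missing through the threshold.

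Peaks of the 2 lists were merged where they overlapped by at least 1 bp. Scripts used Python 3.11.15 with pandas 2.3.3, numpy 2.4.6, scipy 1.17.1 and matplotlib 3.10.9, and were checked on simulated peaks. Genes were 21900 protein-coding genes of a RefSeq table on GRCm38.p6, and start sites were 21263 RefSeq sites of 17492 genes, so a gene without a listed site has none here. Regions were assigned to the nearest gene within 50 kb, and 457 genes in 25 lists were counted. Peaks on all chromosomes, M and Y included, were kept as deposited.

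The genes named are, by rule, the 10 per class with most of its regions, up to 4 per gene list and direction, the 5 highest-scoring regions of a class, up to 8 genes of a class by score at a start site with no region of the other list, and 22 fixed genes. The members, the lists and this rule were chosen with earlier results of these data known. Outside the rule, and chosen after values were seen, are genes of the sequence lines, of the runs, of the counts of genes with a single class and of the closing section, and marker genes without a region. Alternatives to the overlap, threshold, gene window and ranking were computed.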

Additional observations from a re-analysis of the deposited data

How the results depend on the processing

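No paired analysis was possible because each group has 1 list and the lists carry no replicate numbers. The position shares and the shares in other lists moved by less than their intervals, and the class counts changed little, when 50% of the narrower peak had to overlap, when the summit had to lie in a peak of the other list, and on autosomes alone. Sequence round the summits was not run, since no genome was used here. The setting of strong peaks absent from the other list was chosen after seeing the data. With the upper 50% of each list by score, 7207 regions were healed-wound-only, 5379 follicle-only and 9276 shared, with 12.7%, 12.2% and 51.9% near a start site. Of the healed-wound-only regions 92.7% were then in day 80 epidermis, 72.5% in the day 3 partial wound and 0.597% in no other list, and of the follicle-only ones 43.5%, 55.2% and 30.8%. With strong peaks absent from the other list, 4013 and 3143 regions were left, 3.16% and 3.88% near a start site (41.7% of shared), with 90.2%, 58.2% and 1.05% in those lists for the healed wound and 13.8%, 36.2% and 51.8% for the follicle, and 2189 and 1260 genes had more regions in either list. At the common lowest −log10 p, 5.83%, 6.57% and 40% lay near a start site, so the order of the exclusive classes held, while 64.8%, 47.4% and 9.58% of the healed-wound-only regions were in those lists and 32.4% of the follicle-only ones in the day 3 list. With lists of equal length the shares near a start site were 8.42% for the follicle and 39.3% for shared regions, and those in other lists 68.9%, 46.7% and 7.88% against 19.3%, 34.5% and 50.3%. With 50% of a region covered they were 48.7%, 41.9% and 16.6%, against 10.1% (day 80 epidermis) and 57.7% (no other list). Ranked by fold enrichment, the weakest and strongest deciles were shared for 50.3% and 74.4% in the healed-wound list and 51.5% and 85.7% in the follicle list. In all these settings day 80 epidermis held more of the healed-wound-only than of the follicle-only regions.

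Differences (healed-wound-only minus follicle-only regions) reversed as follows, and the cause was not tested. With the upper 50%, AP-1 and stress factors came to 9, EGF and FGF genes to 2, endothelial markers to 1, Fos to 3, Nfkb1 to 4, Slc1a3 and Tenm4 to 2, Grhl2, Hopx, Itga5, Krt14 and Osmr to 1, Col4a2, Krt5, Spred1 and Ywhaz to -1, and Fhit and Foxp1 to -2. At the common lowest −log10 p, basal keratinocyte genes came to 6, AP-1 to 2, Wnt and EGF and FGF genes to 5, and Gpc4 to 1. With lists of equal length, wound epithelium and Notch genes came to -2, Auts2 to -5, and Efna5, Fosl2, Foxp1, Lama3, Tgfbr3 and Ywhaz to -1. With a 10 kb window, wound epithelium genes came to -3, Itga6 to -1 and Osmr to 1, and with 100 kb AP-1 to 4 and Efna5 to -1. With strong peaks absent from the other list, Hippo genes came to -1, endothelial markers to 2, Amotl2 and Lrig1 to -1, Fhit to -2, Grhl2, Itga5, Maml2, Osmr and Smad7 to 1, and Nfkb1 to 2. Reversals touched 26 of 182 named genes with a difference. Unknown depth and thresholds that differ between lists limit every absence.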

Other observations

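The exclusive regions were divided further by the lists that had no part in making them. The genes below were chosen after their values had been seen. Follicle-only regions in an early partial-wound list and in neither epidermal list (2399, 23.3%) were most frequent at Samd5 (8 regions), Pdzrn3 (7) and Adgrl3 (6), and then at Cd44, Ltbp1 and Runx1 among others (5 each). Cd44 encodes a hyaluronan receptor and Runx1 a factor active in bulge cells. Follicle-only regions found in all 6 other lists, and so missing from the healed wound alone, numbered 295 (2.86%), and Myc, a growth factor-responsive transcription factor, and Spry2, an inhibitor of FGF receptor signalling, had 2 each.

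Healed-wound-only regions in an early partial-wound list and in neither epidermal list numbered 1575 (11.2%), and Tead1, a DNA-binding partner of Yap1, had 4 of them, as had Atxn1 and Eif4g3. Those in both epidermal lists and in no early partial-wound list numbered 2587 (18.4%) and were most frequent at Dlg2 (9), Pde4d, a phosphodiesterase (8), and Pkib, an inhibitor of protein kinase A (7). Of the 1452 in no other list, no gene had more than 4 regions, the count at Sik1, a salt-inducible kinase.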
